A study of Mus musculus with 29 samples.

Results

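The 10 aortic arches of mice on dietary restriction (DR) at 22 weeks of age were compared by genotype, 5 from Ercc1Δ/- mice (Ercc1 d/- in the labels, samples 006, 014, 016, 022 and 029) against 5 from wild-type littermates (WT, Ercc1 +/+, samples 007, 010, 017, 021 and 028). They are 10 of the 29 samples of the series, chosen by the genotype, age and diet in their labels, and the question was which differences between the genotypes were present while both were restricted. Each mouse gave 1 sample of total RNA from the perfused arch, which was sequenced in bulk and counted over whole gene bodies. Ercc1Δ/- mice carry 1 null allele and 1 allele that codes for a truncated ERCC1 protein in every cell of the body, so the deficiency is not limited to the aorta or to smooth muscle. All mice of both groups were F1 hybrids of C57BL6J and FVB, were housed alone, ate AIN93G synthetic pellets and were fed just before the dark period. DR began at 7 weeks of age with 10% less food and reached 30% less from 9 weeks onward. Both groups held 3 males and 2 females. The 8 samples of 22-week-old mice fed ad libitum (AL), 4 of each genotype, entered the same fit and are used below where a difference between DR and AL was tested. They share no sample with the DR groups. The AL samples used were 3 males and 1 female of WT and 2 males and 2 females of Ercc1Δ/-.

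ERCC1 and its partner XPF form an endonuclease that cuts damaged DNA strands in nucleotide excision repair and takes part in the repair of crosslinks between strands. Unrepaired lesions stall transcription and replication and can activate p53, and DNA that reaches the cytosol can start a type I interferon response through cGAS and STING. The wall of the aortic arch is built mainly of contractile smooth muscle cells between elastic lamellae, lined by endothelium and wrapped in an adventitia of fibroblasts, resident macrophages and fat. DR is known to lengthen the life of Ercc1-deficient mice and to delay many of their signs of aging.

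Levels are CPM, the counts of a gene per 1000000 counts of the TMM-scaled total of its sample, and values of single samples are listed in the order 006, 014, 016, 022 and 029 for Ercc1Δ/- and 007, 010, 017, 021 and 028 for WT. A log2 fold change (log2FC) is Ercc1Δ/- relative to WT on DR with its standard error (SE) unless AL is named, and the adjusted p is from the quasi-likelihood test of edgeR with Benjamini-Hochberg adjustment over 12353 genes. A differentially expressed gene (DEG) changed by 1.2-fold or more with an adjusted p no higher than 0.05, and "rose" and "fell" are used of DEGs. Gene counts of the 5 Ercc1Δ/- samples ran from 921167 to 2572523, with a median of 1576566, and those of the 5 WT samples from 2660422 to 6124471, with a median of 5557760. Totals therefore did not overlap (two-sided exact permutation test, p = 0.00794, which is the smallest that 5 against 5 can give, adjusted p = 0.0159 over 6 measures). Reads outside any gene also stood apart, with 9.71% ± 0.341 (SD, n = 5) in Ercc1Δ/- and 8.21% ± 0.699 (SD, n = 5) in WT (exact permutation test, p = 0.00794), and mitochondrial genes held 5.94% ± 2.01 and 3.82% ± 1.11 of gene counts (exact permutation test, p = 0.0556). Depth moved with genotype throughout, and its part in the results was not tested beyond thinning all samples to 921167 counts, which left 888 of 1595 DEGs called.

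Sample 016, a male Ercc1Δ/- mouse, stood apart from the other 9 by genes of macrophages and related leukocytes. Itgb2, the common chain of the leukocyte integrins, measured 225 CPM in 016 and 3.84 to 16.9 CPM in the other 9 samples. Selplg, a selectin ligand of leukocytes, measured 42.4 CPM against at most 3.37, and Adgre1, which codes for the F4/80 antigen of mouse macrophages, 103 CPM against at most 8.68. Next by the ratio to the highest of the other samples came Slpi, Cybb, Itgam, Prg4, Cd37, Laptm5 and Cd14, at 4.63 to 7.66 times that level. In all, 39 genes with at least 50 counts in 016 were over 2-fold above every other DR sample, whereas no other of the 10 samples had more than 6 such genes. Not all were leukocyte genes, since the immediate early genes Fos (136 CPM against at most 40.8) and Junb (172 CPM against at most 59.8) were among them. The immediate early list summed to 2338 CPM in 016 and to 1243 to 1794 CPM in the other 9. Genes over 2-fold below every other sample, counted with no minimum, numbered 201 in 014, the sample with the lowest total, 89 in 016 and 4 to 59 in the other 8 samples. The summed level of 20 macrophage genes was 1851 CPM in 016, 469 to 581 CPM in the other 4 Ercc1Δ/- samples and 322 to 439 CPM in WT, so the other Ercc1Δ/- samples were also above all WT samples. A second list, of 16 genes of macrophages of the serous cavities, summed to 9382 CPM in 016 and to 2039 to 2467 CPM in the other 9, led by Fn1, the matrix protein fibronectin, with 6478 CPM against 1476 to 2078 CPM, and by Prg4, the lubricant lubricin. This list had been written with Alox15 known to stand out in 016, and Alox15 itself measured 279 CPM there and 0 to 4.50 CPM elsewhere. B and plasma cell genes summed to 45.7 CPM in 016 and 1.08 to 8.37 CPM in the others. Of 10 tested cavity genes 2 rose (20.0%, against 5.89% of all genes) and 1 fell (10.0%, against 7.02%). Without 016, 1 rose and 1 fell. Where these transcripts came from was not tested, and counts that 016 moved by over 1.5 times are given with and without it.

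**Figure D1:**
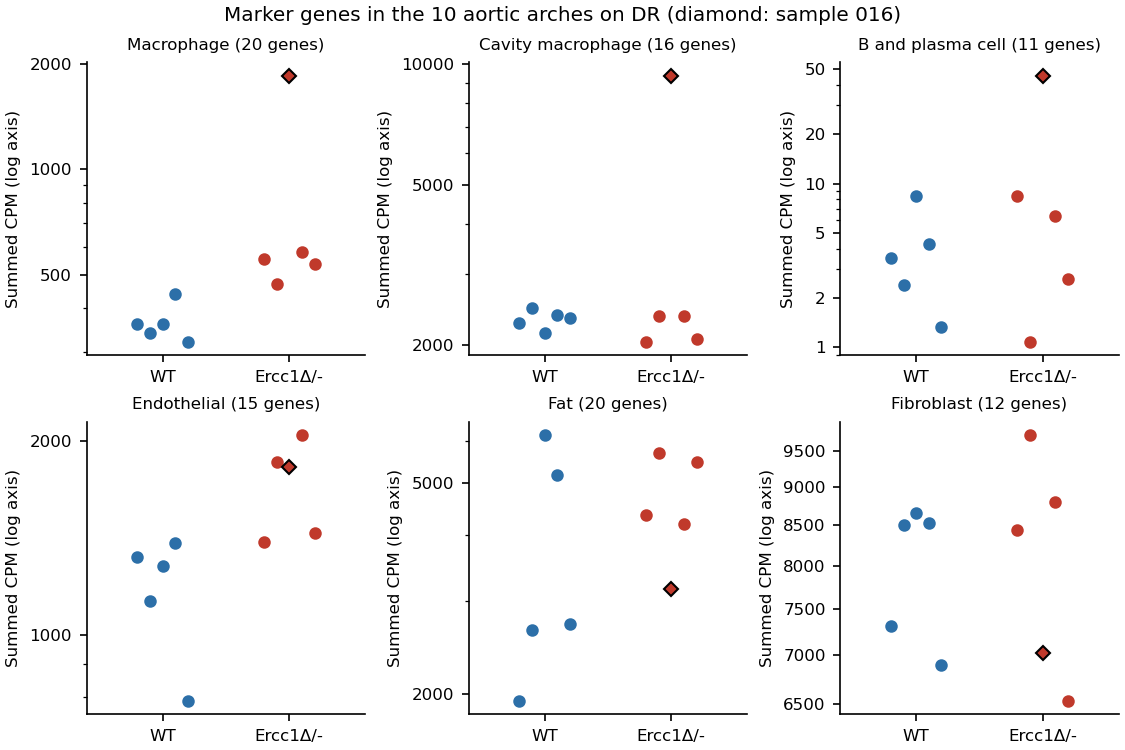
Summed CPM (log axis) of 6 lists of marker genes in each of the 10 DR samples, Ercc1Δ/- in red and WT in blue, with sample 016 as a diamond. Sample 016 lies at 1851 CPM for the macrophage list and 9382 CPM for the cavity macrophage list, above all others, and lies among the other samples for fat, endothelial and fibroblast genes.

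Between the genotypes on DR, 1595 of 12353 genes were DEGs, which is 12.9%, with 728 higher in Ercc1Δ/- (5.89%) and 867 lower (7.02%). Before adjustment, 3223 genes (26.1%) had a p under 0.05. Their sizes were unequal by direction, since 278 DEGs were over 2-fold higher and 82 over 2-fold lower in Ercc1Δ/-, and the median size over all DEGs was 0.59 on the log2 scale. In 1022 genes (8.27%) the 5 values of one genotype did not overlap the 5 of the other, 386 of them higher (3.12%) and 636 lower (5.15%) in Ercc1Δ/-. Leaving out 016 gave 539 higher and 738 lower DEGs, and 1201 of the 1595 were still called, none in the other direction. The median log2FC of all tested genes was 0.0042.

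**Figure D2:**
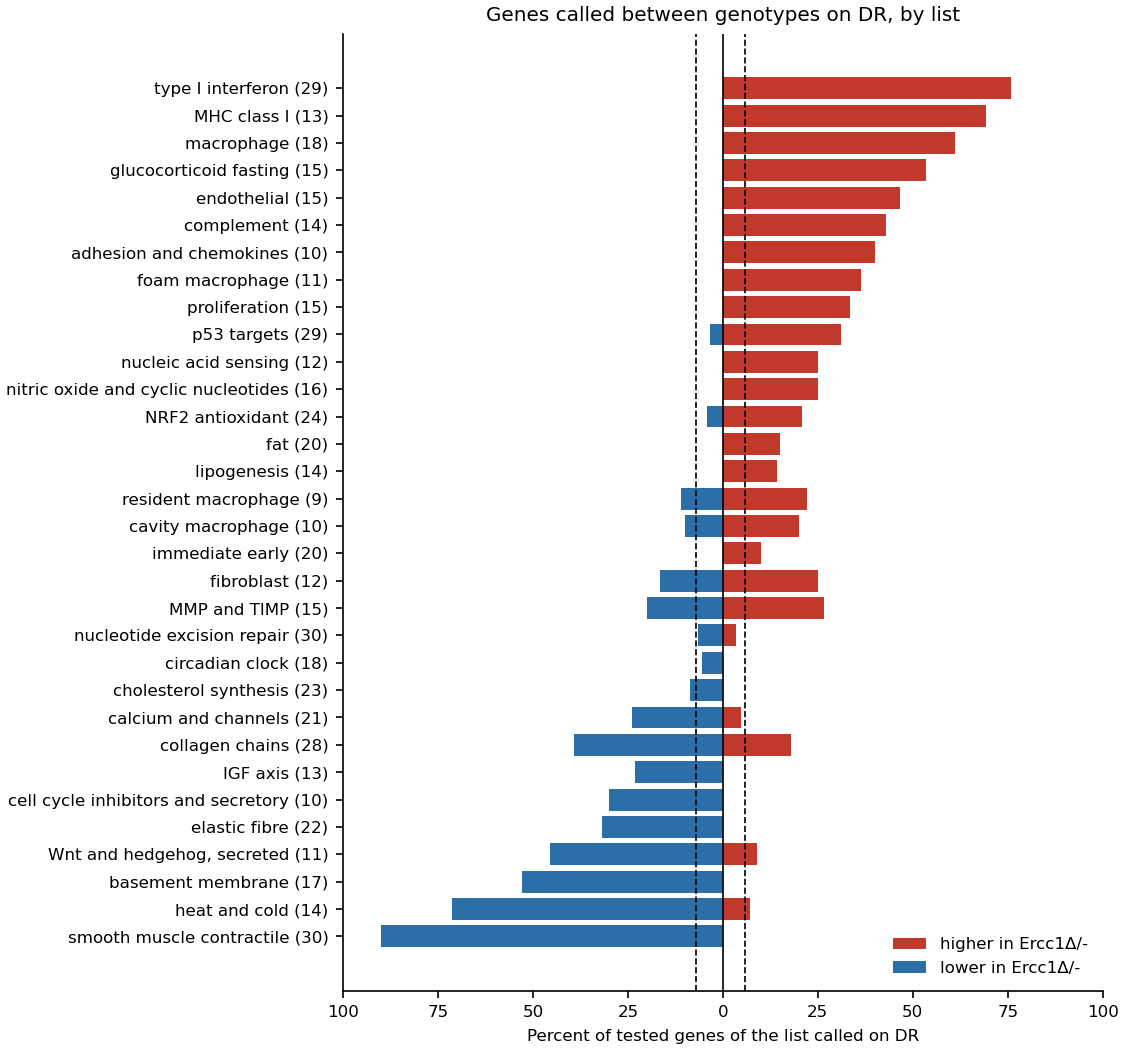
Percent of the tested genes of 32 lists that were DEGs on DR, higher in Ercc1Δ/- to the right (red) and lower to the left (blue), with the number of tested genes beside each name. Dashed lines mark the share over all 12353 genes, 5.89% higher and 7.02% lower, against which contractile and heat-shock genes stood far to the lower side and interferon, MHC class I and macrophage genes far to the higher side.

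The targeted gene was lower in every Ercc1Δ/- sample. Ercc1 (chr7:19075881-19090450, plus strand of GRCm39) measured 7.72, 21.7, 9.93, 17.6 and 21.4 CPM in Ercc1Δ/- and 25.9, 30.0, 30.8, 34.1 and 36.3 CPM in WT (log2FC -1.01, SE 0.19, adjusted p = 0.000509), so that no Ercc1Δ/- sample reached the lowest WT sample. Of 30 genes of nucleotide excision repair, 2 fell (6.67%, against 7.02% of all genes) and 1 rose (3.33%, against 5.89%), shares at or under the background, with 27 not called and a median log2FC of 0.00090. Besides Ercc1, the helicase gene Ercc2 (chr7:19115931-19129623, plus strand of GRCm39), which lies beside Ercc1 on the same chromosome, fell in all 5 samples from 50.6 ± 9.93 CPM in WT to 29.1 ± 5.60 CPM (log2FC -0.76, SE 0.16, adjusted p = 0.0015). Ercc4, which codes for the partner XPF, measured 21.7 ± 3.28 CPM and 24.1 ± 2.22 CPM and was not called (log2FC -0.12, SE 0.15, adjusted p = 0.662). Lig1, which codes for DNA ligase 1, rose (log2FC 0.51, SE 0.15, adjusted p = 0.0246), though its call ended when single samples were left out, namely Lig1 without 014, 017 or 029 (adjusted p 0.0561 to 0.0788). Of the 38 other tested genes within 1 Mb of Ercc1, 9 were DEGs on DR (23.7%, against 12.9% of all genes), 7 lower and 2 higher, and 7 of the 9 were DEGs in the same direction on AL. Over all genes, 43.7% of the DEGs higher on DR and 54.9% of those lower on DR were DEGs in the same direction on AL. The window of 1 Mb was looked at after Ercc2 and Bcam had been seen to fall. Both lie in it and are counted among the 9. Effects of the Ercc1 alleles and of chromosome stretches inherited with them cannot be told apart here.

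p53 target genes were higher in part. Of 29 tested targets 9 rose (31.0%, against 5.89% of all genes) and 1 fell (7 and none without 016), and 25 had a positive log2FC, with a median of 0.34. Cdkn1a (chr17:29309936-29319701, plus strand of GRCm39), the p21 inhibitor of cyclin-dependent kinases, measured 191, 180.1, 225, 159 and 223 CPM in Ercc1Δ/- and 36.0, 44.0, 51.3, 65.9 and 45.5 CPM in WT (log2FC 2.02, SE 0.16, adjusted p = 1.05e-07). Every Ercc1Δ/- sample lay above the highest WT sample by more than the whole range of the WT group, and without 016 the log2FC was 1.96. Eda2r, a receptor of the tumour necrosis factor family, measured 10.9, 18.4, 7.95, 8.62 and 8.88 CPM in Ercc1Δ/- and 2.39, 2.80, 2.14, 3.61 and 3.34 CPM in WT (log2FC 1.87, SE 0.29, adjusted p = 8.12e-05), and Psrc1, a spindle protein, 3.21, 14.1, 7.29, 11.2 and 8.35 CPM in Ercc1Δ/- and 2.21, 1.201, 1.78, 1.97 and 2.01 CPM in WT (log2FC 2.18, SE 0.32, adjusted p = 3.98e-05). Both were low in counts, and neither overlapped between groups. Sesn2 and Plk2 also rose (log2FC 0.80, SE 0.16, adjusted p = 0.000869 and log2FC 1.09, SE 0.23, adjusted p = 0.0015). Trp53inp1, a regulator of autophagy and apoptosis, was above all WT samples in each Ercc1Δ/- sample but varied widely among them, with 262, 96.5, 293, 96.7 and 186 CPM in Ercc1Δ/- and 59.4, 48.5, 50.9, 82.0 and 76.4 CPM in WT (log2FC 1.51, SE 0.31, adjusted p = 0.00587).

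Other well-known targets were not called. Mdm2, the ubiquitin ligase that degrades p53, measured 77.0 ± 5.70 CPM and 69.1 ± 7.69 CPM (log2FC 0.17, SE 0.10, adjusted p = 0.323), Bax, which opens the mitochondrial membrane in apoptosis, had a log2FC of 0.30 (adjusted p = 0.349), and Gdf15 one of 1.02 (adjusted p = 0.075). The death receptor gene Tnfrsf10b was the 1 target that fell (log2FC -0.64, SE 0.18, adjusted p = 0.0168), but its call ended on leaving out single samples, namely Tnfrsf10b without 006, 007 or 016 (adjusted p 0.059 to 0.0626). Cdkn2a, which codes for the p16 and p19 proteins used as signs of senescence, had no count in 8 of the 10 samples and was not tested. Of 10 tested genes in a list of further cell cycle inhibitors and secreted senescence factors, which does not hold Cdkn1a, none rose and 3 fell, among them Lmna and Lmnb2, which code for nuclear lamins (log2FC -0.42, SE 0.09, adjusted p = 0.00135 and log2FC -0.58, SE 0.15, adjusted p = 0.0114), while 5 had a positive log2FC and the median was -0.06 with 016 and -0.24 without it. The 3 that fell are 30.0% of the 10, against 7.02% of all genes. Proliferation genes were rare in both groups: of 32 listed, 15 passed the filter on low counts. Of these 15, 5 rose (33.3%, against 5.89% of all genes) and none fell, with 2 called after thinning to equal depth. Mki67, the marker of cycling cells, measured 6.43, 1.08, 7.95, 7.12 and 3.13 CPM in Ercc1Δ/- and 1.66, 0.400, 1.25, 0.656 and 0.501 CPM in WT (log2FC 2.47, SE 0.56, adjusted p = 0.0045), and Top2a 1.93, 2.17, 7.95, 6.37 and 1.57 CPM in Ercc1Δ/- and 1.29, 0.801, 1.07, 0.328 and 0.501 CPM in WT (log2FC 2.28, SE 0.49, adjusted p = 0.00224).

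Genes of the contractile apparatus of smooth muscle formed the most uniform group that was lower. Of 30 genes 27 fell (90.0%, against 7.02% of all genes), none rose, 29 had a negative log2FC, and the median log2FC was -0.57. In 23 of the 30 the groups did not overlap, against 5.15% of all genes. Fewer cells of a type and less RNA per cell cannot be told apart in bulk tissue, here and in every list below. Ldb3, a Z-disc protein that binds α-actinin, measured 109.9, 86.8, 102, 90.7 and 86.1 CPM in Ercc1Δ/- and 207, 227, 188, 188 and 222 CPM in WT (log2FC -1.12, SE 0.08, adjusted p = 3.39e-09). The highest Ercc1Δ/- sample stayed below the lowest WT sample by more than the range of either group. Myh11, the smooth muscle myosin heavy chain, measured 8456, 9591, 10402, 9407 and 10246 CPM in Ercc1Δ/- and 12275, 17591, 14272, 14034 and 15157 CPM in WT (log2FC -0.61, SE 0.12, adjusted p = 0.00111), and Acta2, smooth muscle α-actin, 7437, 6026, 6205, 5796 and 5991 CPM in Ercc1Δ/- and 9445, 11075, 7991, 10179.5 and 8557 CPM in WT (log2FC -0.59, SE 0.10, adjusted p = 0.000177). The groups were separate in both genes. Actg2, the enteric form of smooth muscle actin, fell further (log2FC -1.10, SE 0.15, adjusted p = 5.64e-05), while Tagln, which codes for the actin-binding SM22α, fell less (log2FC -0.36, SE 0.09, adjusted p = 0.00825). Calponin 1 (Cnn1, log2FC -0.79), smoothelin (Smtn, -0.74), α-actinin 1 (Actn1, -0.68) and the integrin chain Itga8 (-0.79) lay between. Des and Cald1, which code for desmin and caldesmon, were among the exceptions, with adjusted p of 0.173 and 0.163. The count of 27 was 26 without 016 and 27 after thinning.

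Other DEGs that were lower with the smallest p lay outside this list. Bcam (chr7:19490056-19505165, minus strand of GRCm39), a receptor for laminin α5 chains, had the smallest p of all genes and measured 386, 483, 460.3, 529 and 526 CPM in Ercc1Δ/- and 1235, 1402, 1134, 926 and 1243 CPM in WT (log2FC -1.31, SE 0.10, adjusted p = 2.81e-09). The groups lay far apart, with the highest Ercc1Δ/- sample at 529 CPM and the lowest WT sample at 926 CPM. Filamin C (Flnc, 236 ± 15.2 CPM against 542 ± 73.5 CPM, log2FC -1.19), Enah, which drives the growth of actin filaments (log2FC -1.05), T-cadherin (Cdh13, log2FC -0.98), and Mcam, an adhesion molecule of vessel walls (log2FC -0.87), fell without overlap. So did Cspg4, the NG2 proteoglycan of mural cells (log2FC -0.87), Sparcl1, a matricellular protein (log2FC -0.87), Vasn, a decoy for TGF-β (log2FC -0.81), and the uncharacterised gene Gm13889 (log2FC -1.63).

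**Figure D3:**
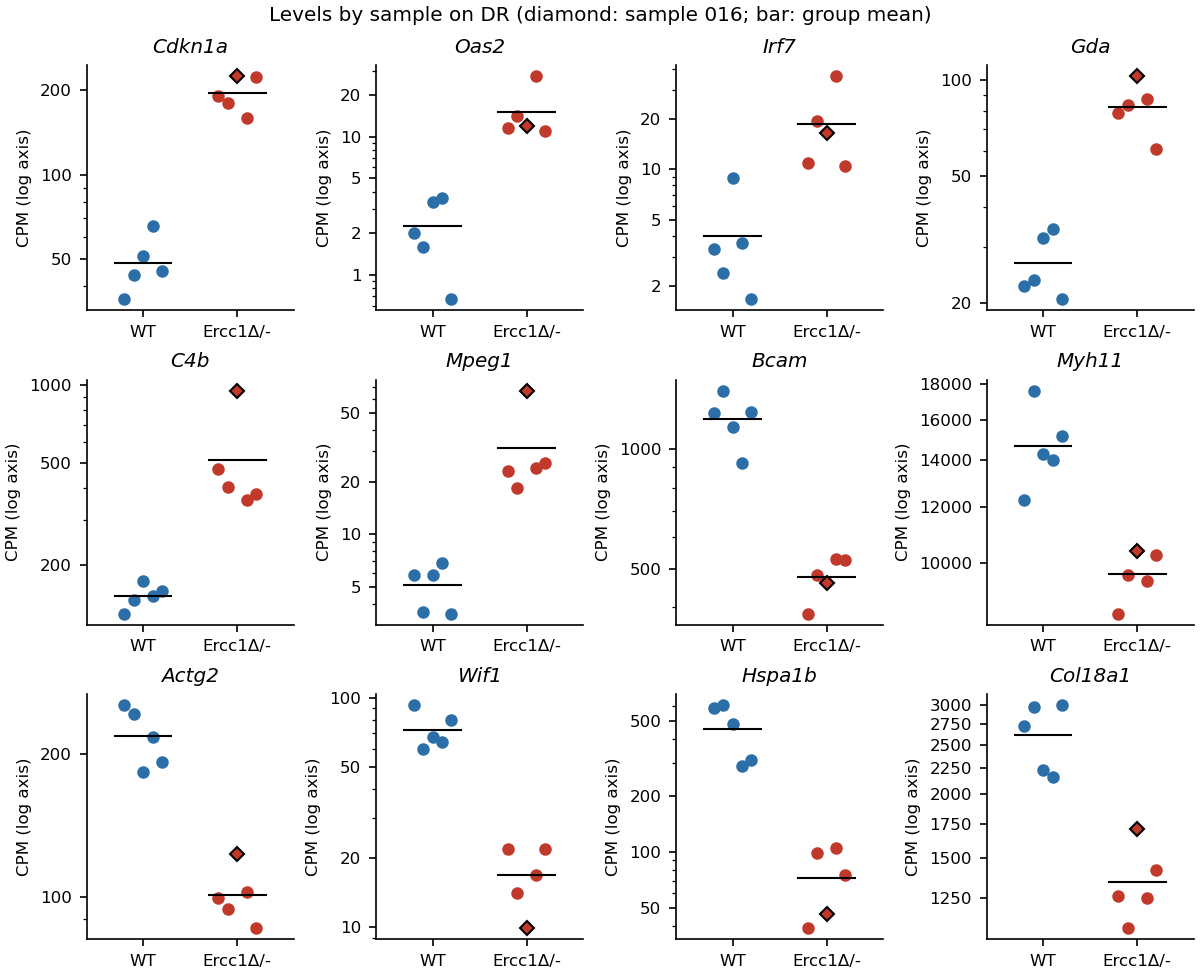
CPM (log axis) of 12 genes in the 10 DR samples, Ercc1Δ/- in red and WT in blue, with sample 016 as a diamond and the mean of each group as a bar. In each of the 12 genes the samples of one genotype lie apart from those of the other.

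The serum response factor binds CArG boxes in the promoters of many contractile genes, and the exact 10-base CArG box was therefore looked for, on both strands, in the 250 bases before the start of the canonical transcript. It was present in 2 of the 30 contractile genes, Tagln and Vcl, and in 151 of 12342 promoters of tested genes (1.22%). Many of the known boxes of these genes lie outside such a short window or differ by a base, so that nothing follows for the other 28. The stretches around both boxes are shown in GRCm39, 5′ to 3′ on the strand of the gene, with the box in capitals, since both genes fell.
Tagln (chr9:45847424-45847503, minus strand, starting 64 bases before the start site): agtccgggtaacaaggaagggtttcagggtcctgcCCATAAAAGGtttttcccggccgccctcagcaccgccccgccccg
Vcl (chr14:20979216-20979283, plus strand, starting 227 bases before the start site): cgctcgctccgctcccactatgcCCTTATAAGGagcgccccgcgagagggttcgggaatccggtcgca

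Genes of the extracellular matrix fell in several lists. Of 17 tested basement membrane genes 9 fell (52.9%, against 7.02% of all genes) and none rose, with a median log2FC of -0.33. Among the 9 that fell, 4 code for receptors of the cell surface, Bcam among them. Besides Bcam the 9 included the laminin chains Lama4, Lamb2 and Lama5 and the heparan sulphate proteoglycan perlecan. Lama4, a chain of the laminins of vessels, measured 192, 206, 156, 235 and 193 CPM in Ercc1Δ/- and 325, 312, 322, 313 and 332 CPM in WT (log2FC -0.70, SE 0.09, adjusted p = 8.87e-06), and Hspg2, which codes for perlecan, 1447, 1534, 1736, 1509 and 1547 CPM in Ercc1Δ/- and 2366, 2462, 2164, 1840.0 and 2508 CPM in WT (log2FC -0.54, SE 0.08, adjusted p = 6.12e-05). Neither gene overlapped between the groups. Of 28 tested collagen chains 11 fell (39.3%) and 5 rose (17.9%, against 5.89% of all genes), with a median of -0.29. Without 016, 11 fell and 3 rose. Col18a1 and Col15a1, the collagens that tie basement membranes to the tissue around them, fell most clearly by p (log2FC -0.96, SE 0.09, adjusted p = 6.62e-08 and log2FC -1.10, SE 0.11, adjusted p = 6.33e-07). Col18a1 measured 1259, 1090.2, 1709, 1249.8 and 1419.5 CPM in Ercc1Δ/- and 2726, 2971, 2236, 2162 and 2995 CPM in WT. The chains of interstitial collagen I, Col1a1 and Col1a2, fell (log2FC -0.45, SE 0.12, adjusted p = 0.0151 and log2FC -0.46, SE 0.09, adjusted p = 0.00151), as did Col4a1 and Col4a2, the chains of all basement membranes (log2FC -0.35 and -0.35), whereas Col4a3 and Col4a4, of the specialised network best known from kidney, rose (log2FC 0.59 and 0.53). Calls that ended on leaving out single samples were those of Col4a3 without 006, 007, 014, 016, 017 or 028 (adjusted p 0.0556 to 0.161) and Col1a1 without 006 or 029 (adjusted p 0.0501 to 0.0528).

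Elastic fibre genes fell in part: 7 of 22 fell (31.8%, against 7.02% of all genes) and none rose, with a median log2FC of -0.15. They were Fbln5, Ltbp1, Loxl1, Mfap4, Efemp2, Ltbp4 and Ltbp3, which code for proteins of the assembly of the fibre or of its store of TGF-β. Fbln5, fibulin 5, measured 566, 525, 521, 624 and 464 CPM in Ercc1Δ/- and 981, 768, 859.8, 755 and 885 CPM in WT (log2FC -0.66, SE 0.10, adjusted p = 8.84e-05), and the crosslinking enzyme Loxl1 245 ± 39.9 CPM and 370.4 ± 27.7 CPM (log2FC -0.59, SE 0.10, adjusted p = 0.000314). Elastin itself (Eln) measured 2025, 2283, 2439.8, 2971 and 2256 CPM in Ercc1Δ/- and 3480.0, 3017, 2349, 4439 and 3263 CPM in WT and just missed the threshold (log2FC -0.47, SE 0.15, adjusted p = 0.0532), and the groups overlapped. Fibrillin 1 (Fbn1) had a log2FC of 0.12 (adjusted p = 0.495) and the lysyl oxidase Lox one of 0.13 (adjusted p = 0.684).

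Among 15 tested matrix metalloproteases and their inhibitors, 4 rose (26.7%, against 5.89% of all genes) and 3 fell (20.0%, against 7.02%). Mmp3, stromelysin 1, measured 25.1, 18.4, 13.9, 15.0 and 15.1 CPM in Ercc1Δ/- and 5.52, 10.0, 6.59, 11.1 and 7.19 CPM in WT (log2FC 1.15, SE 0.24, adjusted p = 0.00159), without overlap. Mmp17 and Mmp23, which code for proteases of the cell membrane, fell without overlap (log2FC -0.63, SE 0.11, adjusted p = 0.000384 and log2FC -0.53, SE 0.10, adjusted p = 0.000749). Mmp14, a protease of the cell surface, and Mmp2, the gelatinase that it activates, rose by less (log2FC 0.42, SE 0.12, adjusted p = 0.0161 and log2FC 0.38, SE 0.11, adjusted p = 0.0223). The inhibitors went in different directions, with Timp4 higher (log2FC 1.11, SE 0.24, adjusted p = 0.00517), Timp3 lower (log2FC -0.28, SE 0.07, adjusted p = 0.00842) and Timp1 not called (log2FC 0.57, SE 0.22, adjusted p = 0.0923). Of 11 tested genes in a list of regulators and targets of Wnt and hedgehog signals 5 fell (45.5%, against 7.02% of all genes) and 1 rose (9.09%, against 5.89%). Wif1, a secreted inhibitor of Wnt ligands, measured 21.9, 14.1, 9.93, 16.9 and 21.9 CPM in Ercc1Δ/- and 92.7, 59.7, 67.5, 63.9 and 80.1 CPM in WT (log2FC -2.08, SE 0.20, adjusted p = 7.87e-07), with the highest Ercc1Δ/- sample far below the lowest WT sample. Scube3, a secreted glycoprotein of the SCUBE family, measured 255, 344, 244, 352 and 283 CPM in Ercc1Δ/- and 672, 785, 557, 733 and 729 CPM in WT (log2FC -1.23, SE 0.12, adjusted p = 4.1e-07). Frzb, another secreted Wnt inhibitor, rose (log2FC 0.89, SE 0.14, adjusted p = 0.000186). Gli1 and Hhip, which hedgehog signals induce, fell with overlap between the groups (log2FC -0.49 and -0.51). Leaving out single samples ended the calls of Mmp14 without 014 (adjusted p = 0.0501), Mmp2 without 022 (adjusted p = 0.0685), Hhip without 007, 010, 021, 022 or 029 (adjusted p 0.052 to 0.0798) and Timp3 without 007, 021, 028 or 029, where its change was under 1.2-fold.

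Interferon-stimulated genes were higher in most of the list. Type I interferon signals through a complex that holds IRF9 and binds interferon-stimulated response elements (ISREs) in the promoters of these genes. Of 29 tested genes of the response 22 rose (75.9%, against 5.89% of all genes), none fell and all 29 had a positive log2FC, with a median of 1.14. Without 016, 21 rose, and after thinning 17. The ISRE core GAAANNGAAA was looked for on both strands of the 250 bases before the start site and was present in 12 of the 29 genes (41.4%), in 9 of the 22 that rose (40.9%) and in 372 of 12342 promoters of tested genes (3.01%). Such a match is a description of the sequence and no sign of binding. For the 4 genes with the smallest p among those that rose and held a match, the stretches are shown in GRCm39. Each is on the strand of the gene, with the first match of the window in capitals, in either orientation of the core. The stretches of Bst2, Usp18 and Rtp4 hold further matches, which are left in lower case.
Oas2 (chr5:120887945-120888024, minus strand, starting 56 bases before the start site): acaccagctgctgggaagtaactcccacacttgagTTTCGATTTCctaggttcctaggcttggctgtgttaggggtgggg
Bst2 (chr8:71990202-71990281, minus strand, starting 132 bases before the start site): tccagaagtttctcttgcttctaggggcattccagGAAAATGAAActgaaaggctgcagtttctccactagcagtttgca
Usp18 (chr6:121222747-121222826, plus strand, starting 75 bases before the start site): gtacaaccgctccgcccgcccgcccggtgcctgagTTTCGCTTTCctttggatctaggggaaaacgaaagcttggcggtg
Rtp4 (chr16:23428560-23428639, plus strand, starting 51 bases before the start site): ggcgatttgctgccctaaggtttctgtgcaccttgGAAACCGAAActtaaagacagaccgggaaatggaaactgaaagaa

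Oas2, an enzyme that senses double-stranded RNA and activates RNase L, measured 11.6, 14.1, 11.9, 27.4 and 11.0 CPM in Ercc1Δ/- and 2.02, 1.60, 3.38, 3.61 and 0.669 CPM in WT (log2FC 2.84, SE 0.31, adjusted p = 6.52e-07). Its lowest Ercc1Δ/- sample, at 11.0 CPM, lay well above its highest WT sample, at 3.61 CPM. Usp18, which removes ISG15 and dampens the interferon receptor, measured 3.86, 8.68, 7.29, 12.7 and 5.74 CPM in Ercc1Δ/- and 1.10, 0.400, 3.20, 0.656 and 0.669 CPM in WT (log2FC 2.54, SE 0.41, adjusted p = 0.000121), and the antiviral membrane protein gene Bst2 48.9, 49.9, 68.9, 90.3 and 59.5 CPM in Ercc1Δ/- and 26.5, 29.2, 37.6, 27.5 and 25.9 CPM in WT (log2FC 1.14, SE 0.15, adjusted p = 1.62e-05). In all 3 of these genes the female Ercc1Δ/- sample 022 was the highest of the 10. Irf7, the factor that amplifies interferon production, measured 10.9, 19.5, 16.6, 36.0 and 10.4 CPM in Ercc1Δ/- and 3.31, 2.40, 8.90, 3.61 and 1.67 CPM in WT (log2FC 2.22, SE 0.37, adjusted p = 0.000523). Here the female WT sample 017, at 8.90 CPM, came closest to the Ercc1Δ/- range. Isg15 overlapped in 1 WT sample, the same 017, with 3.86, 11.9, 3.31, 19.1 and 3.65 CPM in Ercc1Δ/- and 1.47, 0.400, 3.38, 1.31 and 1.67 CPM in WT (log2FC 2.14, SE 0.43, adjusted p = 0.00126). Ifitm3, which blocks the entry of viruses, rose without overlap (log2FC 0.93, SE 0.11, adjusted p = 2.91e-06), and Irf9 rose with overlap (log2FC 0.76, SE 0.17, adjusted p = 0.00528). Summed over 36 interferon genes, 022 held 1697 CPM, the other Ercc1Δ/- samples 1033 to 1163 CPM and WT 591 to 922 CPM.

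Of 12 tested genes that sense or clear nucleic acids in the cytosol, 3 rose, the nucleotidase Samhd1 (log2FC 0.60, SE 0.10, adjusted p = 0.000182), the RNA editor Adar (log2FC 0.44, SE 0.10, adjusted p = 0.00507) and the DNA sensor Ifi204 (log2FC 1.25, SE 0.31, adjusted p = 0.00762), and none fell. The 3 that rose are 25.0% of the 12, against 5.89% of all genes. The call of Ifi204 ended on leaving out 1 sample, namely Ifi204 without 022 (adjusted p = 0.061), and after thinning 1 of the 12 was called. Sting1 itself measured 5.79, 8.68, 5.30, 8.62 and 4.70 CPM in Ercc1Δ/- and 6.44, 6.01, 6.41, 5.25 and 3.84 CPM in WT and was not called (log2FC 0.23, SE 0.30, adjusted p = 0.696), and Cgas did not pass the filter on low counts. MHC class I genes rose in 9 of 13, in 6 without 016 and in 6 after thinning, with H2-T23 at 62.4, 73.8, 55.6, 77.2 and 47.0 CPM in Ercc1Δ/- and 28.1, 31.2, 33.6, 32.1 and 28.7 CPM in WT (log2FC 1.03, SE 0.13, adjusted p = 6.73e-06), and H2-D1 and B2m by less (log2FC 0.49, SE 0.11, adjusted p = 0.00271 and log2FC 0.35, SE 0.10, adjusted p = 0.0186). The 9 of 13 MHC class I genes that rose are 69.2%, against 5.89% of all genes. Reads of H2 genes can be split between near-identical copies and their counts are uncertain for that reason. Of 6 MHC class II genes, which mark cells that present antigen, only H2-Ab1 passed (16.7%, against 5.89% of all genes, adjusted p = 0.042). All 6 had a positive log2FC, with a median of 0.96, and DESeq2 called 4. Single samples ended the calls of H2-Ab1 without 006, 010, 016, 017, 021, 028 or 029 (adjusted p 0.063 to 0.108) and B2m without 006 or 010 (adjusted p 0.0581 to 0.0668).

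Complement genes rose in 6 of 14 (42.9%, against 5.89% of all genes) and fell in none, with a median log2FC of 0.71. C4b measured 473, 402, 952, 359.9 and 380.1 CPM in Ercc1Δ/- and 130.0, 147, 174, 152 and 159 CPM in WT (log2FC 1.71, SE 0.24, adjusted p = 0.000269), with 016 far above the next sample and a log2FC of 1.41 without it, and C3 1024, 2006, 1259.6, 1715 and 1409 CPM in Ercc1Δ/- and 607, 719, 1265, 1056 and 812 CPM in WT (log2FC 0.74, SE 0.13, adjusted p = 0.000385). The 3 chains of C1q, which macrophages make, rose (log2FC 0.78, 1.10 and 0.67 for C1qa, C1qb and C1qc). All 6 were also called without 016. Of 10 tested adhesion molecules and chemokines 4 rose (40.0%, against 5.89% of all genes). Vcam1, by which leukocytes attach to the vessel wall, measured 172, 148, 146, 134 and 97.1 CPM in Ercc1Δ/- and 90.8, 61.3, 56.2, 65.2 and 50.6 CPM in WT (log2FC 1.10, SE 0.17, adjusted p = 0.000318), and the chemokine Ccl9 23.8, 26.0, 48.3, 28.5 and 22.4 CPM in Ercc1Δ/- and 6.80, 4.00, 8.37, 6.23 and 5.35 CPM in WT (log2FC 2.24, SE 0.31, adjusted p = 0.000117). Both separated the genotypes fully, as did Ccl6 (log2FC 1.83, SE 0.31, adjusted p = 0.000996) and the membrane-bound chemokine Cx3cl1 (log2FC 0.87, SE 0.19, adjusted p = 0.00205). Icam1 was not called (log2FC 0.39, SE 0.14, adjusted p = 0.0768).

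Macrophage genes were higher with and without 016, and by less without it. Of 18 tested markers 11 rose with 016 (61.1%, against 5.89% of all genes) and 9 without it. The median log2FC was 1.61 with 016 and 0.95 without. Thinned to equal depth, 5 of the 18 rose. Mpeg1, a pore-forming protein of macrophages, measured 23.1, 18.4, 66.9, 24.0 and 25.6 CPM in Ercc1Δ/- and 5.88, 3.60, 5.87, 6.89 and 3.51 CPM in WT (log2FC 2.62, SE 0.34, adjusted p = 7.87e-05), and without 016 its log2FC was 2.15 (adjusted p = 2.77e-07). Lyz2, lysozyme, measured 180.0, 162, 807, 207 and 141 CPM in Ercc1Δ/- and 77.1, 56.1, 83.1, 111 and 50.5 CPM in WT (log2FC 2.00, SE 0.47, adjusted p = 0.013), with a log2FC without 016 of 1.19 (adjusted p = 0.000795). In both genes the remaining 4 Ercc1Δ/- samples lay above all WT samples. Ctss, cathepsin S, rose (log2FC 1.96, SE 0.36, adjusted p = 0.00184), as did Cd68 with overlap (log2FC 1.14, SE 0.26, adjusted p = 0.00404). Adgre1 and Csf1r, the receptor of the macrophage growth factor CSF1, were not called with 016 (adjusted p = 0.0827 and 0.251) or without it (adjusted p = 0.515 and 0.638). The Itgb2 difference was 3.04 on the log2 scale with 016 and 0.99 without it, and that of Prg4 2.69 and 1.72, each a DEG both ways. Markers of resident macrophages of the adventitia were mixed, with Lyve1 and F13a1 higher (log2FC 0.67, SE 0.19, adjusted p = 0.021 and log2FC 0.45, SE 0.14, adjusted p = 0.0407) and Cbr2 lower (log2FC -0.56, SE 0.08, adjusted p = 2.28e-05) among 9 tested, where single samples ended the calls of Lyve1 without 006 or 028 (adjusted p 0.0588 to 0.0601) and F13a1 without 006, 007, 010, 014, 017, 022, 028 or 029 (adjusted p 0.0563 to 0.11). Of the 9 resident markers 22.2% rose and 11.1% fell, against 5.89% and 7.02% of all genes. Of 11 tested genes of lipid-laden macrophages 4 rose (36.4%, against 5.89% of all genes), Lipa, Spp1, Fabp5 and Lpl. Of these, Fabp5 and Lpl are also made by fat cells. This list summed to 2817 CPM in 016, the lowest of the Ercc1Δ/- samples, to 3801 to 4645 CPM in the other 4 and to 2589 to 3970 CPM in WT, and the samples lowest and highest in WT were also those lowest and highest for the fat genes given below, whose part was not tested. None of 11 genes of T and NK cells and none of 7 genes of neutrophils passed the filter on low counts, and the T and NK list summed to at most 6.00 CPM in any of the 10 samples.

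Endothelial genes were higher on DR. Of 15 tested markers 7 rose (46.7%, against 5.89% of all genes) and none fell. All 15 had a positive log2FC, and the median was 0.65. On AL 2 of the 15 rose, against 5.7% of all genes, with a median of 0.13. No gene of the list passed the interaction test between the diets. Esam, an endothelial adhesion molecule, measured 46.9, 53.2, 51.7, 50.6 and 45.4 CPM in Ercc1Δ/- and 28.5, 24.8, 33.8, 32.5 and 20.1 CPM in WT (log2FC 0.84, SE 0.13, adjusted p = 5.32e-05), and Cldn5, a claudin of tight junctions, 36.0, 29.3, 24.5, 36.0 and 37.1 CPM in Ercc1Δ/- and 16.7, 9.21, 19.8, 20.0 and 13.9 CPM in WT (log2FC 1.04, SE 0.18, adjusted p = 0.000313). The groups were separate in both. Cdh5 and Pecam1, the defining junction proteins, rose with overlap (log2FC 0.65, SE 0.14, adjusted p = 0.00243 and log2FC 0.69, SE 0.20, adjusted p = 0.0383), and Vwf did not (log2FC 0.32, SE 0.30, adjusted p = 0.565). Without 016, 4 genes of the list rose, and Pecam1 was among those whose call ended on leaving out single samples, namely Pecam1 without 010, 016, 017, 022 or 028 (adjusted p 0.0524 to 0.101). The list summed to 1393 to 2043 CPM in Ercc1Δ/- and 789 to 1386 CPM in WT.

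Other cell types were checked by their lists, against 5.89% of all genes higher and 7.02% lower. Fibroblast genes gave 3 higher, Ly6a, Cd34 and Pdgfra, and 2 lower of 12, against 2 higher and none lower both without 016 and after thinning, with summed levels of 6531 to 9740 and 6891 to 8663 CPM, and their defining gene Pdgfra rose by 0.34 on the log2 scale (adjusted p = 0.0445), with its call lost for Pdgfra without 006, 007, 010, 016, 017 or 022 (adjusted p 0.0661 to 0.127). Fat genes summed to 3155 to 5696 CPM in Ercc1Δ/- and, more widely, to 1943 to 6175 CPM in WT, with the highest WT values in the 2 females, 017 and 021. Of 20 fat genes 3 rose (15.0%). Elovl3, an elongase of brown fat, measured 81.0, 115, 35.8, 56.6 and 88.8 CPM in Ercc1Δ/- and 1.10, 8.41, 31.3, 14.8 and 2.67 CPM in WT (log2FC 2.91, SE 0.64, adjusted p = 0.00842), and Dio2, which activates thyroid hormone there, 131, 156, 64.9, 90.0 and 92.4 CPM in Ercc1Δ/- and 48.4, 38.0, 62.8, 44.9 and 54.0 CPM in WT (log2FC 1.06, SE 0.21, adjusted p = 0.00274), whereas Ucp1 was not called (log2FC 1.57, SE 0.71, adjusted p = 0.18) and measured 495, 818, 239, 461 and 554 CPM in Ercc1Δ/- and 8.09, 141, 433, 383 and 101 CPM in WT. Heart muscle genes summed to 222 to 595 CPM in Ercc1Δ/- and 100.04 to 195 CPM in WT, without overlap. Most of this sum was Tnnt2, cardiac troponin T, with 502, 185, 205, 203 and 384 CPM in Ercc1Δ/- and 85.1, 151, 86.7, 81.0 and 164 CPM in WT (log2FC 1.37, SE 0.25, adjusted p = 0.00214), while Myh6, the atrial myosin, ranged from 6.62 to 148 CPM and from 0.534 to 69.2 CPM (log2FC 1.97, SE 1.09, adjusted p = 0.282). Of the 13 heart genes 7, among them Nppa, Myl2 and Myh7, did not pass the filter, and of the 6 tested only Tnnt2 was called. Markers of the mesothelium rose in 2 of 7, and without 016 none was called although their median log2FC was 1.37 there and 1.31 with it, and erythroid genes in none of 4. The part of attached tissue in these differences was not tested.

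Lists of genes that respond to handling, feeding or temperature were compared as well. Of 14 heat-shock and cold-inducible genes 10 fell (71.4%, against 7.02% of all genes) and 1 rose, with a median log2FC of -0.77. Hspa1b, inducible HSP70, measured 39.2, 98.7, 46.4, 105 and 75.7 CPM in Ercc1Δ/- and 586, 606, 482, 286 and 310.2 CPM in WT (log2FC -2.66, SE 0.42, adjusted p = 0.000834), and Hspb1, a small heat-shock protein, 212, 236, 219, 145 and 200.5 CPM in Ercc1Δ/- and 709.6, 576, 534, 334 and 604 CPM in WT (log2FC -1.44, SE 0.20, adjusted p = 0.000248). The groups did not overlap in either. Reads of Hspa1b and its near-identical copy Hspa1a cannot be assigned with certainty, and Hspa1a fell alike (log2FC -2.40). The constitutive chaperones Hspa8 and Hsp90ab1 fell too (log2FC -0.75 and -0.65), and the 1 gene that rose was Cirbp, a cold-inducible RNA-binding protein (log2FC 0.59), whose call was lost for Cirbp without 006, 007, 010, 016, 017, 028 or 029 (adjusted p 0.0669 to 0.106). On AL 9 of the 14 fell, against 7.16% of all genes, with a median of -0.69. Glucocorticoid and fasting genes were higher: of 15 tested 8 rose (53.3%, against 5.89% of all genes) and none fell. All 15 had a positive log2FC, with a median of 0.72. The metallothionein Mt2 measured 265, 182, 262, 103 and 178 CPM in Ercc1Δ/- and 45.6, 49.3, 68.7, 75.7 and 56.7 CPM in WT (log2FC 1.70, SE 0.22, adjusted p = 0.000144), and Ddit4, an inhibitor of mTORC1, 54.0, 20.6, 166, 33.7 and 62.6 CPM in Ercc1Δ/- and 9.93, 9.61, 19.0, 16.1 and 15.7 CPM in WT (log2FC 2.15, SE 0.45, adjusted p = 0.00638). Sample 016 was the highest for Ddit4, and 5 of the 8 were called without it. Fkbp5, a chaperone that glucocorticoids induce, separated the groups by little (399, 222, 468, 228 and 357 CPM in Ercc1Δ/- and 149, 219.8, 181, 219.7 and 157 CPM in WT, log2FC 0.84, SE 0.24, adjusted p = 0.0345) and was lost on leaving out single samples, namely Fkbp5 without 006, 007, 016, 017, 028 or 029 (adjusted p 0.0529 to 0.0894). On AL 2 of the 15 rose, against 5.7% of all genes, with a median of 0.34. No gene of the list passed the interaction test between the diets. Of 18 clock genes only Per2 was called (log2FC -0.45, SE 0.14, adjusted p = 0.0364), which is 5.56% lower against 7.02% of all genes. Of 20 immediate early genes Myc and Socs3 rose (10.0%, against 5.89%, log2FC 1.16, SE 0.29, adjusted p = 0.00699 and log2FC 0.71, SE 0.23, adjusted p = 0.0395). Without 016, 1 of the 20 rose. The median log2FC of this list was 0.14 with 016 and -0.13 without it. The calls of Per2 without 007, 010, 017, 028 or 029 (adjusted p 0.0521 to 0.0983) and Socs3 without 006, 007, 014, 016, 017, 021 or 028 (adjusted p 0.0542 to 0.198) did not hold.

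The factor NRF2 switches on antioxidant enzymes. Of 24 genes 5 rose (20.8%, against 5.89% of all genes) and 1 fell (4.17%, against 7.02%) on DR. On AL 11 rose and none fell, against 5.7% higher and 7.16% lower of all genes. No gene of the list passed the interaction test. Gpx1, Srxn1 and Txnrd1, which code for enzymes that remove peroxides and reduce oxidised thiols, were not called on DR (log2FC -0.12, 0.24 and 0.10) and were DEGs on AL (log2FC 0.42, 0.77 and 0.43). The difference between the diets did not pass the interaction test for any of the 3 (adjusted p = 0.0612, 0.267 and 0.488). Hmox1, haem oxygenase 1, measured 32.8, 64.0, 30.5, 30.4 and 37.6 CPM in Ercc1Δ/- and 18.9, 13.2, 16.2, 18.7 and 12.7 CPM in WT (log2FC 1.22, SE 0.26, adjusted p = 0.00369), with sample 014 the highest. Gclc, which limits the synthesis of glutathione, and Ftl1, a ferritin chain, rose without overlap (log2FC 0.50, SE 0.11, adjusted p = 0.00253 and log2FC 0.48, SE 0.08, adjusted p = 0.000266). In the insulin-like growth factor axis 3 of 13 genes fell (23.1%, against 7.02% of all genes), and 1 after thinning. The binding protein Igfbp4 led the 3 (log2FC -0.49, SE 0.09, adjusted p = 0.000404), and Igf1 itself was not called (log2FC 0.26, SE 0.16, adjusted p = 0.325). Of 23 cholesterol synthesis genes 2 fell (8.70%, near the 7.02% of all genes), among them Srebf2, a regulator of the pathway (log2FC -0.38, SE 0.11, adjusted p = 0.0209), and 1 rose without 016 but not with it. Of 14 lipogenic genes 2 rose (14.3%, against 5.89% of all genes). They were Scd2 and Gpam (log2FC 0.38, SE 0.11, adjusted p = 0.0167 and log2FC 1.03, SE 0.29, adjusted p = 0.033). The lipogenic genes summed to 3950 to 11734 CPM in Ercc1Δ/- and 2586 to 15322 CPM in WT, lowest and highest within each genotype in the same samples as the fat genes, and the part of fat content was not tested. Single samples ended the calls of Srebf2 without 006, 007, 010 or 028 (adjusted p 0.0549 to 0.0848), Scd2 without 014 (adjusted p = 0.063) and Gpam without 006, 007, 010, 014, 028 or 029 (adjusted p 0.0672 to 0.0888).

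Ion channels and cyclic nucleotides set the tone of the vessel. Of 21 tested calcium and channel genes 5 fell (23.8%, against 7.02% of all genes) and 1 rose (4.76%, against 5.89%). Kcnmb1 and Kcnma1, the subunits of the large-conductance potassium channel that relaxes smooth muscle, fell without overlap (log2FC -0.56, SE 0.08, adjusted p = 4.38e-05 and log2FC -0.44, SE 0.10, adjusted p = 0.00481), and the potassium channel gene Kcna5 rose (log2FC 1.59, SE 0.37, adjusted p = 0.0048). Of 16 tested genes of nitric oxide and cyclic nucleotide signals 4 rose (25.0%, against 5.89% of all genes), and 2 after thinning. All 4 code for phosphodiesterases. Pde1a, which breaks down cyclic nucleotides when calcium rises, measured 41.8, 61.8, 48.3, 37.9 and 43.3 CPM in Ercc1Δ/- and 28.5, 28.0, 31.0, 35.7 and 27.9 CPM in WT (log2FC 0.60, SE 0.14, adjusted p = 0.00509), and Pde1b, Pde9a and Pde4d followed (log2FC 0.96, 1.15 and 0.59). Calls were lost for Pde9a without 016 (adjusted p = 0.0594) and Pde4d without 006, 007, 010, 014 or 029 (adjusted p 0.076 to 0.119). Nos3, the endothelial nitric oxide synthase, was not called (log2FC 0.51, SE 0.31, adjusted p = 0.326).

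The DEGs with the smallest p among those that were higher held Gda, guanine deaminase, with 79.1, 83.5, 103, 87.0 and 60.6 CPM in Ercc1Δ/- and 22.6, 23.6, 32.0, 34.1 and 20.6 CPM in WT (log2FC 1.65, SE 0.13, adjusted p = 7.47e-09), and Ly6a, the stem cell antigen Sca-1 and a gene of the fibroblast list, with 125, 161, 92.1, 196 and 84.6 CPM in Ercc1Δ/- and 52.0, 45.6, 62.8, 58.0 and 43.1 CPM in WT (log2FC 1.30, SE 0.12, adjusted p = 6.24e-08). In both genes the lowest Ercc1Δ/- sample exceeded the highest WT sample. Tmem176b, a membrane protein gene, was tighter within the groups (47.6, 40.1, 43.7, 45.7 and 45.4 CPM in Ercc1Δ/- and 22.8, 20.4, 17.1, 18.0 and 15.4 CPM in WT, log2FC 1.26, SE 0.14, adjusted p = 6.33e-07). Lgals9, a galectin (log2FC 1.04), Osmr, the receptor of oncostatin M (log2FC 0.76), Slc43a3, a purine carrier (log2FC 0.91), Lpin3, a phosphatidate phosphatase (log2FC 1.09), and the unnamed gene Gm56906 (log2FC 1.30) were also among them, each without overlap.

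How far the genotype difference on DR resembled that on AL was then examined. Gene counts stood apart by genotype on AL as well, from 1294980 to 3855444 in Ercc1Δ/- and from 3903589 to 9616382 in WT. Both comparisons thus carry a difference in depth in the same direction, and its part in their likeness was not tested. On AL, 1588 genes were DEGs (12.9%), 704 higher (5.7%) and 884 lower (7.16%) in Ercc1Δ/-. In both comparisons 318 genes were higher, which is 43.7% of the genes higher on DR and 45.2% of those on AL, and 476 were lower, 54.9% and 53.8% of the 2 lists. Of the genes higher on DR 2 were called lower on AL, and of those lower on DR none was called higher on AL. A gene called in only 1 diet is not shown to differ between them, and the direct test of the difference, with a threshold on the adjusted p alone, called 11 genes (0.089%), 6 (0.0486%) whose genotype difference was more positive on DR and 5 (0.0405%) in which it was more negative. Before adjustment, 1053 genes (8.52%) had a p under 0.05. DESeq2 called 43 genes, and the count fell to 2 when the sex term was left out. Spp1 and Lgals3 were called in each of the fits that left out 1 of the 18 samples. Plvap was lost in 1 of them, without the Ercc1Δ/- AL sample 004 (adjusted p = 0.0558), and the other 8 genes were each lost in 4 to 16 of the 18 fits, with adjusted p of up to 0.209 for Gbp4.

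**Figure D4:**
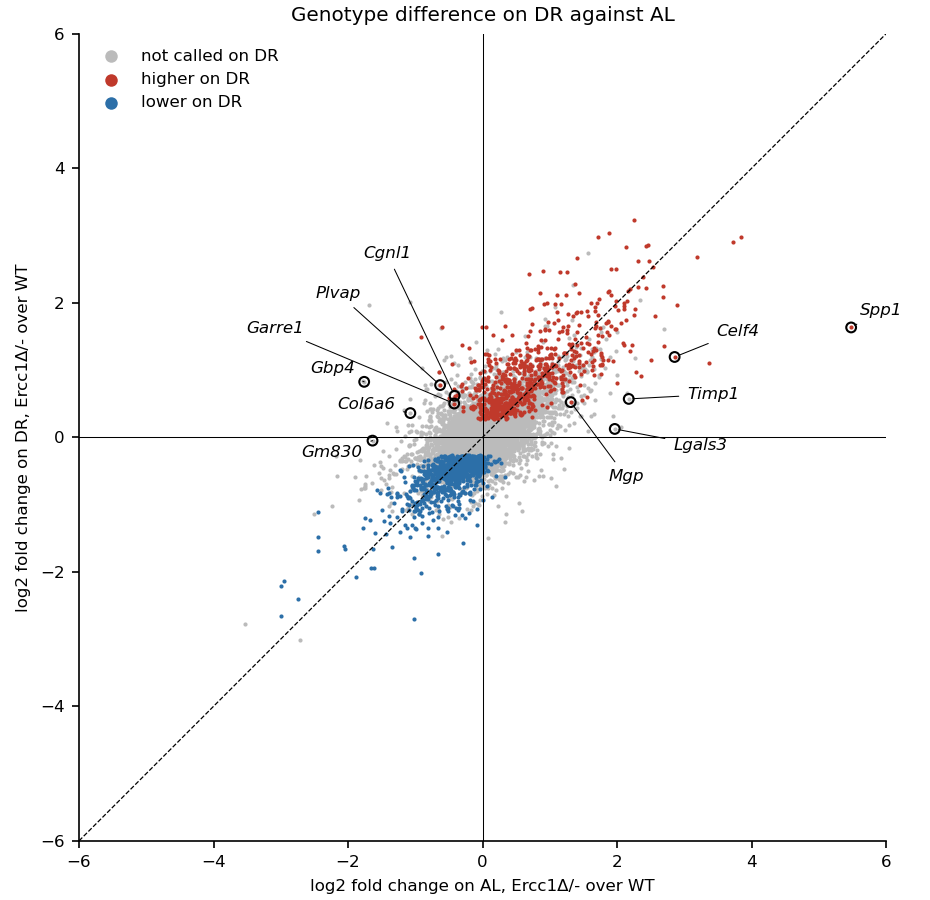
Log2 fold change of Ercc1Δ/- against WT on AL (horizontal) and on DR (vertical) for the 12353 tested genes, in grey, with the genes that were DEGs on DR in red (higher) and blue (lower) and the 11 genes called by the interaction test named. Of the DEGs on DR 669 of 728 higher and 839 of 867 lower genes have the same sign on AL, while Spp1, Lgals3 and Timp1 lie far to its right.

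Of the 5 genes with a more negative difference on DR, Spp1 (osteopontin, a matrix protein and cytokine) changed most. On DR it measured 12.2, 6.51, 12.6, 3.37 and 7.31 CPM in Ercc1Δ/- and 2.94, 3.20, 1.42, 1.97 and 3.34 CPM in WT (log2FC 1.63, SE 0.35, adjusted p = 0.00214), and on AL 56.8 ± 13.2 CPM in Ercc1Δ/- and 1.37 ± 0.630 CPM in WT (log2FC 5.48), which gave an interaction in the log2 difference (interaction -3.85, SE 0.49, adjusted p = 0.000449). Lgals3, galectin 3, measured 41.1, 24.9, 30.5, 30.4 and 47.0 CPM in Ercc1Δ/- and 32.5, 34.8, 23.9, 41.3 and 30.8 CPM in WT on DR (log2FC 0.12, SE 0.17, adjusted p = 0.703) and 61.6 ± 12.3 CPM and 16.9 ± 3.13 CPM on AL, with an interaction of -1.84 (adjusted p = 0.0005). Restricted Ercc1Δ/- and WT samples were interleaved. Timp1, an inhibitor of metalloproteases, measured 17.2 ± 6.69 CPM and 11.4 ± 1.96 CPM on DR and 46.4 ± 12.5 CPM and 10.7 ± 1.87 CPM on AL (interaction -1.60, adjusted p = 0.0279). Mgp, matrix Gla protein, which holds back calcification, was a DEG on DR too (log2FC 0.52, SE 0.10, adjusted p = 0.000651), with 1960.0 ± 354 CPM and 1364 ± 117 CPM against 3365 ± 391 CPM and 1378 ± 24.2 CPM on AL (interaction -0.79, adjusted p = 0.0279). For Celf4, an RNA-binding protein, the Ercc1Δ/- levels were 17.0 ± 5.46 CPM on DR and 17.4 ± 3.84 CPM on AL and the WT levels 7.48 ± 0.849 CPM on DR and 2.46 ± 0.549 CPM on AL (interaction -1.66, adjusted p = 0.0474).

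The 6 genes with a more positive difference on DR included Plvap, which forms the diaphragms of fenestrated endothelium, with 37.4 ± 15.3 CPM and 21.5 ± 4.43 CPM on DR and 28.0 ± 5.46 CPM and 39.1 ± 11.1 CPM on AL (interaction 1.41, adjusted p = 0.00803). It was higher than WT on DR (log2FC 0.78, SE 0.16, adjusted p = 0.00144) and lower on AL (log2FC -0.63, adjusted p = 0.0129), and is thus 1 of the 2 genes called in opposite directions. The other was Garre1, an effector of the RAC1 GTPase, with 71.5 ± 12.9 CPM and 49.9 ± 3.06 CPM on DR and 41.6 ± 2.85 CPM and 55.8 ± 8.14 CPM on AL (interaction 0.92, adjusted p = 0.0367). On AL the call of Plvap ended without WT 018 or Ercc1Δ/- 004 (adjusted p 0.0932 and 0.0604). That of Garre1 on AL ended without 004, 013, 018, 020 or 026 (adjusted p 0.0706 to 0.205). Cgnl1, a junction protein related to cingulin, rose on DR (log2FC 0.62, SE 0.12, adjusted p = 0.00177) and was not called on AL. Gm830, Gbp4 and Col6a6 were lower than WT on AL (log2FC -1.64, -1.76 and -1.07) and not called on DR (log2FC -0.05, 0.82 and 0.36). In WT on AL, Gbp4 measured 60.7 CPM in sample 018 and 6.27 to 13.6 CPM in the other 3, and without 018 its log2FC on AL was -0.92 (adjusted p = 0.0946) and its interaction 1.76 (adjusted p = 0.209).

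**Figure D5:**
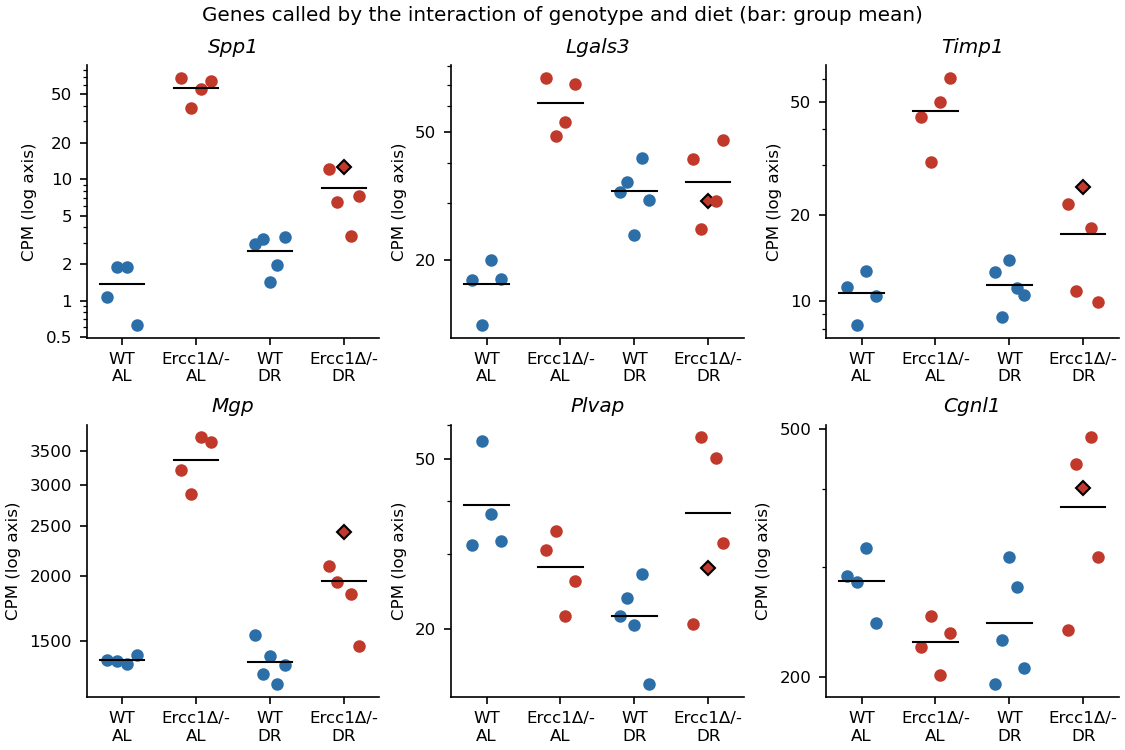
CPM (log axis) of 6 genes called by the interaction test in the 4 groups of 22-week-old mice, WT and Ercc1Δ/- on AL (4 samples each) and on DR (5 samples each), with bars at the group means. Spp1, Lgals3, Timp1 and Mgp lie higher in Ercc1Δ/- on AL than on DR. For Plvap and Cgnl1 the Ercc1Δ/- mean lies below the WT mean on AL and above it on DR, and the samples overlap on both diets.

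Further genes that the study followed in the aging aorta were compared in the same way. Mmp3 was a DEG on both diets (log2FC 1.15 on DR and 2.50 on AL), as were Col8a1 (0.55 and 1.47), Vcam1 (1.10 and 1.78), Cd68 (1.14 and 1.94), Irf7 (2.22 and 2.43) and Irf9 (0.76 and 0.86). Their interaction did not pass, with adjusted p of 0.142, 0.142, 0.434, 0.54, 0.968 and 0.969. The DR call of Col8a1 was lost for Col8a1 without 006, 010, 016, 017 or 021 (adjusted p 0.0503 to 0.0916). Sting1 was called on neither diet. The p53 target Cdkn1a measured 183 ± 20.3 CPM in Ercc1Δ/- and 46.1 ± 10.6 CPM in WT on AL, and its genotype difference was 2.02 on DR and 1.99 on AL (interaction 0.04, SE 0.23).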

How the data were processed

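RNA of the aortic arch was sequenced in 29 samples, 1 per mouse. The authors sequenced paired 150-base reads with unique molecular identifiers (UMIs), trimmed them with fastp, aligned them with STAR (2.7.10a) to GRCm39, removed duplicate molecules with UMI-tools (1.1.2) and deposited raw read counts per Ensembl gene from htseq-count (HTSeq 2.0.2), counted over whole gene bodies with introns. Versions are those of the submitters' processing notes. The library kit marks strand, but whether counting used it is not given in the sources used here, so genes that overlap on opposite strands are uncertain.

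From these counts, 56748 genes were read, and 5 summary lines, such as reads outside any gene, were kept out of totals and tests. Symbols and coordinates came from GENCODE, with 56017 genes matched. The filter of the study, over 10 counts in over 10 of 28 samples, left 12353 genes for testing. Sample 003, a WT AL sample, was left out as in the study. A quasi-likelihood F test (edgeR 4.0.16 in R 4.3.3, robust, TMM) was fitted to the 18 samples of 22-week-old mice with group and sex as terms, as in the study's design, and gave the genotype difference on DR, that on AL and the interaction of both. DEGs changed by 1.2-fold or more with an adjusted p no higher than 0.05, and the interaction had no fold threshold. Single values per sample were compared by exact permutation tests (scipy 1.17.1). Lists were described by counts, with no set test. On simulated counts of the 12353 genes for the comparison on DR, 80 of 100 genes changed 2-fold and 88 of 100 changed 3-fold were recovered, with 11 false calls. No pair of samples of one DR group matched within sampling noise (chi-square per degree of freedom of 2.35 to 20.2). Counts per sample on DR are given above, and the shallower Ercc1Δ/- samples carry the larger counting error.

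The groups, gene lists and genes named here were chosen with earlier results of these data known. Named genes were Ercc1, 12 DEGs per direction by smallest p, the 6 interaction genes with the smallest p, up to 6 DEGs per direction and up to 3 well-known members from each list, genes the study showed, and the 10 genes that stood out most in sample 016. The other 5 of the 11 interaction genes, Alox15, the genes of the window around Ercc1 and single markers were added after their values were seen. Alternatives were another test (DESeq2 1.42.0), size factors, filters, samples in the fit, no sex term, a test against the fold threshold (glmTreat), equal depth and each sample left out in turn. A newer edgeR dispersion method was added after seeing the data. Results that need some items are left out and are not reported here.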

Additional observations from a re-analysis of the deposited data

Results flagged for a closer look

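For each named gene and summed list, the gap between the most extreme sample and the next was divided by the range of its genotype group on DR. In groups of 5, a share above 0.71 marks a sample far from the others, and chance does so in about 1 group in 20. Of 402 groups looked at, 40 (9.95%) held such a sample, and in 22 of these it was sample 016, always as the highest of the Ercc1Δ/- group. These counts were set in part by the choice of genes, since 10 genes were named because they stood out in 016 and the cavity macrophage list was written with Alox15 known to do so. Without these 10 genes and that list, 28 of 380 groups (7.37%) held such a sample, which was 016 in 11 of them.

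The shares for 016 were 0.969 for Adgre1, 0.958 for Itgb2, 0.951 for Cybb, 0.945 for Selplg, 0.942 for Laptm5, 0.94 for Slpi, 0.929 for Cd37 and for Prg4, 0.923 for Fn1, 0.918 for Itgam, 0.902 for Lyz2, 0.875 for Cd14 and 0.853 for Mpeg1. These are genes of macrophages or of the lists that stood out in that sample. Ccl9 (0.767), Csf1r (0.758), the complement gene C4b (0.808), the stress gene Ddit4 (0.711) and the phosphodiesterase gene Pde9a (0.86) were also far higher in 016 than in the other Ercc1Δ/- samples. Among summed lists, 016 was far above the rest for cavity macrophage genes (0.956), neutrophil genes (0.941), macrophage genes (0.918) and B and plasma cell genes (0.837). What brought these transcripts into the sample was not tested.

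Other Ercc1Δ/- samples stood apart for 1 gene or list at a time. Sample 006 was far the highest for Acta2 (0.751) and for summed erythroid genes (0.918) and far the lowest for Per2 (0.762). Sample 014 was far the highest for Eda2r (0.716) and Hmox1 (0.785), sample 022 for Oas2 (0.809) and sample 029 for Celf4 (0.817).

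In the WT group, the female sample 017 was far the highest for 4 interferon genes, Bst2 (0.715), Irf7 (0.732), Rtp4 (0.747) and Usp18 (0.749), and for Slpi (0.73), and far the lowest for Osmr (0.835). Sample 028 was far the lowest for Icam1 (0.791). Sample 010 was far the highest for Lmnb2 (0.737) and Tagln (0.758), sample 007 for Itga8 (0.748) and sample 021 for Myh6 (0.791).

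The genotype difference itself differed between DR and AL in 11 genes by the interaction test. On the log2 scale, the difference on DR minus that on AL was -3.85 for Spp1, -1.84 for Lgals3, -1.66 for Celf4, -1.60 for Timp1 and -0.79 for Mgp, and 2.58 for Gbp4, 1.59 for Gm830, 1.43 for Col6a6, 1.41 for Plvap, 1.03 for Cgnl1 and 0.92 for Garre1.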

How the results depend on the processing

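The counts of DEGs on DR (728 higher and 867 lower) fell to 292 and 313 with glmTreat, which tests against the 1.2-fold change itself, and to 419 and 556 with all samples thinned to 921167 counts. On AL (704 and 884) they were 313 and 363 with glmTreat and 388 and 554 after thinning, and with no filter 1333 genes were lower. Leaving out single samples gave 504 to 724 higher and 655 to 878 lower genes on DR, the fewest without WT 028, and 395 to 676 higher and 531 to 819 lower on AL, the fewest without WT 018. The interaction called 11 genes, against 43 with DESeq2, 133 with no filter, 5 with all 28 samples in the fit, 5 after thinning, 3 with sample 003 added and 2 without the sex term. Without single samples it called 2 to 17, with 2 without Ercc1Δ/- AL 004 and 17 without WT AL 012. The cause of these moves was not tested, beyond the fewer counts of thinning and the stricter threshold of glmTreat.

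The difference in the share of mitochondrial counts was 2.60 percentage points without 016 (exact permutation test, p = 0.0397), and 1.30 to 2.60 over all samples left out in turn. The log2FC of Fn1 turned to -0.196 without 016 and ran up to 0.560 without other samples. That of Gm830, near 0 on DR, was 0.0278 after thinning and ran from -0.232 to 0.0758 without single samples, turning positive without 006 or 022. Of 152 named DEGs on DR, 90 kept their call in every alternative, 124 in every fit without 1 sample, 142 without 016, 121 after thinning and 149 with DESeq2, and none reversed. Of the counts of list members called without 016, after thinning and with DESeq2, 198 were within 1.5 times of the reported ones and 42 were not. No paired analysis was possible because the sample numbers in the labels are those of single mice, and the groups share none. Low counts in the Ercc1Δ/- samples limit what is said of genes near the filter.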

Other observations

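Of 11653 tested protein-coding genes, 684 were higher and 852 lower on DR, beside 728 and 867 of all 12353 genes. Of 388 tested long non-coding RNA genes, 24 were higher and 10 lower, against 5.89% and 7.02% of all genes.

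Mesothelial genes, which line the serous cavities, summed to 57.9 to 373 CPM in Ercc1Δ/- and 54.9 to 153 CPM in WT on DR, with overlap, and 016 lay at 175.5 CPM, below 3 other Ercc1Δ/- samples. Schwann cell genes summed to 45.0 to 86.1 CPM and 45.4 to 79.6 CPM. Of 7 tested genes Mal, a proteolipid of myelinating cells, rose (14.3%, against 5.89% of all genes). Mast cell genes summed to 3.25 to 18.5 CPM and 9.61 to 24.3 CPM. Skeletal muscle genes summed to at most 13.1 CPM in any sample on DR.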
